A study of Mus musculus with 15 samples.

Results

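The genes described here are the PLAG family of zinc finger transcription factors, Plag1, Plagl1 and Plagl2, with their partner genes Hmga1, Hmga2, Lin28a and Lin28b. They were found by gene symbol in a table of raw read counts, as 7 of 41591 genes, and 5 of the 7 had enough counts to be tested among 19388 genes. RNA came from the whole epididymis, the duct in which sperm mature and are stored, of 15 mice labelled as 7 weeks old and as strain Brown Swiss. Of these mice, 5 were labelled Wild type (WT), 5 Plag1 -/+ (HET) and 5 Plag1 -/- (KO), and each gave 1 library. Epididymides were teased apart in cold buffered saline and rinsed against sperm, and libraries were made with a stranded mRNA kit. The labels name no treatment, batch or litter, and do not say which part of Plag1 the knockout allele removes, so a count over the whole gene does not check that part. They name no Cre driver or other restriction of the allele to a cell type.

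PLAG proteins bind DNA through C2H2 zinc fingers and are best known as growth regulators of the embryo and of tumours, with the Igf2 gene among their described targets. HMGA proteins are small architectural chromatin factors that bind the minor groove of AT-rich DNA, and HMGA2 has been described upstream of PLAG1 in other tissues. LIN28 proteins bind let-7 precursors and block their maturation, while mature let-7 represses mRNAs of Hmga2, Lin28a, Lin28b and the Igf2bp family, so that these genes are often drawn as 1 growth circuit.

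The let-7 seed is shown first, because it is what joins the HMGA and LIN28 members to the rest of the circuit. All 9 let-7 and miR-98 mature 5p sequences of the RefSeq set on GRCm38.p6 shared 1 seed, bases 2 to 8, which is in capitals in these 3 examples.
mmu-let-7a-5p: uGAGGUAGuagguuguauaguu
mmu-let-7d-5p: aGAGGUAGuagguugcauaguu
mmu-miR-98-5p: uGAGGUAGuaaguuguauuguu

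In the 3′ UTR of 1 GENCODE M21 transcript per gene, the reverse complement of that seed occurred 4 times in Hmga2 and 4 times in Lin28b. It occurred 2 times in Lin28a, 1 time each in Hmga1 and Plagl2, and 0 times in Plag1 and Plagl1. For comparison, 17.25% of 2753 genes with a 3′ UTR at least as long as that of Hmga2 held any match in a window of the same length, and 0.073% held as many as 4. The corresponding share with as many matches was 0.276% for Lin28b and 1.744% for Lin28a. For Hmga1 it was 7.47% and for Plagl2 20.9%. All 4 matches of Hmga2 are given, and for each other gene the match nearest the start of its 3′ UTR, as 23 bases 5′ to 3′ on the mRNA strand with the seed match in capitals, in GRCm38 coordinates. A match is a description of letters, not of a working site.
Hmga2, chr10:120364224-120364246, minus strand: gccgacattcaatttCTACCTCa
Hmga2, chr10:120362987-120363009, minus strand: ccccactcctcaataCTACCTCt
Hmga2, chr10:120362549-120362571, minus strand: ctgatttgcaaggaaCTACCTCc
Hmga2, chr10:120361691-120361713, minus strand: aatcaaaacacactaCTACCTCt
Lin28a, chr4:134005189-134005211, minus strand: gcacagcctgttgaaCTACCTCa
Lin28b, chr10:45381022-45381044, minus strand: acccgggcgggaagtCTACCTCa
Hmga1, chr17:27563277-27563299, plus strand: tcctctgttcacaaaCTACCTCt
Plagl2, chr2:153229898-153229920, minus strand: ttcagaaacacacttCTACCTCt
Igf2bp2, chr16:22059473-22059495, minus strand: acacacaaataaaagCTACCTCa

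The libraries held 20.3 to 27.8 M counts in WT, 23.6 to 33.8 M in HET and 25.3 to 42.0 M in KO. Levels are given as CPM, counts scaled to a common library total, with TMM library sizes. All 12 epididymal epithelium markers were detected, with a summed level of 38291 to 59588 CPM. KO-738 stood apart from the other KO libraries. Its Plag1 level lay below every WT library and in the HET range, as did those of KO-694 and KO-739. Its Plagl1 and Igf2bp2 levels lay in the WT range and its Hmga2 level above WT. Its summed endothelial markers, 161 CPM, exceeded those of every WT and HET library, the highest being 149 CPM in HET-692. Whether its genotype label is right was not tested, and this bears on every KO mean given with n = 5. Without KO-738 the KO against WT log2 fold changes of the tested members were -0.65 for Plag1, -0.39 for Plagl1, -0.11 for Plagl2, -0.04 for Hmga1 and -0.63 for Hmga2. The same 2 of 5 were called as with all libraries, Plagl1 and the targeted Plag1, both as lower. Over all genes 5.21% were then called as lower and 9.75% as higher. KO-738 and HET-693 had the highest share of counts in ribosomal RNA genes, 1.49% each against at most 0.607% in the other libraries. Fibroblast markers passed the test as higher in KO than in WT for 8 of 10 genes, endothelial markers for 6 of 7, macrophage markers for 6 of 8 and germ cell markers for 5 of 15. Over all tested genes 4.4% were called as higher. Of the 12 epithelium markers 1 was called as higher and 1 as lower. For smooth muscle and for adipocytes 0 of 5 markers were called. The adipocyte markers had a median KO against WT log2 fold change of 2.13. Their summed level ranged from 3.82 to 19.5 CPM in WT, 2.89 to 19.7 in HET and 4.02 to 86.4 in KO. Summed fibroblast markers ranged in WT from 1740 to 2185 CPM, in HET from 1934 to 2374, and in KO from 2143 to 3844, with KO-738 the lowest KO library. For germ cell markers the ranges were 46.8 to 101 in WT, 71.5 to 126 in HET and 51.1 to 249 in KO. None of the markers was at 0 in every library. In bulk tissue fewer cells of a type and less RNA per cell cannot be told apart.

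Plag1 and Plagl1 fell in KO, Plagl2 did not pass the test, and neither did Hmga1 or Hmga2, while Lin28a and Lin28b were at the limit of detection. In KO against WT, 2 of the 5 tested members were therefore called, both as lower. For comparison, edgeR's quasi-likelihood test called 6.0% of all genes, and 1.6% of all genes as lower. Of these 2 members, Plag1 is the gene targeted in the KO and HET mice, so its call is not independent of the grouping. The other, Plagl1, lost its call in 11 of the 15 fits that left out 1 library. In HET against WT, 0 of 5 members were called, and the background was 0.0%, because edgeR called 0 genes there (854 at an unadjusted p under 0.05, 1 gene called by DESeq2 and 0 by limma voom). In KO against HET, 0 of 5 members were called with a background of 1.96%.

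Gene positions here are those of the RefSeq annotation of GRCm38.p6. Plag1 (NCBI Gene 56711; chr4:3898769-3938430, minus strand) was the targeted gene and encodes the founding member of the family. In WT its level was 11.9 CPM in WT-709, 13.0 in WT-719, 12.0 in WT-720, 12.5 in WT-723 and 14.0 in WT-726. In HET it was 9.62 CPM in HET-692, 10.6 in HET-693, 10.5 in HET-715, 8.11 in HET-718 and 11.8 in HET-735. In KO it was 8.17 CPM in KO-694, 6.99 in KO-695, 7.90 in KO-696, 9.36 in KO-738 and 9.16 in KO-739. Every HET and every KO library lay below every WT library, while 3 of the 5 KO libraries lay within the range of HET, KO-738 among them. The share of all tested genes that separate in this way is not given, here or for the genes below. The exact two-sided permutation test of KO against WT gave p = 0.00794, the smallest that 5 against 5 libraries can give, and HET against WT gave the same value. For KO against HET the exact permutation p was 0.0397. Adjusted over the 15 member tests, these exact permutation values were 0.0595, 0.0595 and 0.149.

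In the fit across all genes, Plag1 in KO was 0.656-fold the WT level (95% interval 0.564 to 0.762), a log2 fold change of -0.61 ± 0.10 (SE) with an edgeR adjusted p of 0.00493. HET against WT gave -0.32 ± 0.10 (95% interval -0.54 to -0.11), with an unadjusted p of 0.00596 and an edgeR adjusted p of 0.981 over all genes. KO against HET gave -0.29 ± 0.10 with an edgeR adjusted p of 0.127. The HET level differed from the midpoint of WT and KO by -0.02 ± 0.09 on the log2 scale (95% interval -0.21 to 0.17), so a departure from the midpoint was not detected for Plag1. In that comparison edgeR called 0 genes, a background of 0.0%, with 1521 genes at an unadjusted p under 0.05. Fitted over the number of intact alleles, Plag1 changed by 0.30 ± 0.05 log2 units per allele with an edgeR adjusted p of 0.00505, in a fit that called 1.42% of all genes as lower with fewer alleles. Plag1 had 211 to 344 counts per library. Its biological coefficient of variation, the spread beyond counting error, was 12.1%, against a common value of 16.3% fitted over all genes. All WT animals carry numbers above 700, and among animals numbered above 700 (5 WT and 2 KO) the difference was -0.45 with an edgeR adjusted p of 0.168.

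**Figure D1:**
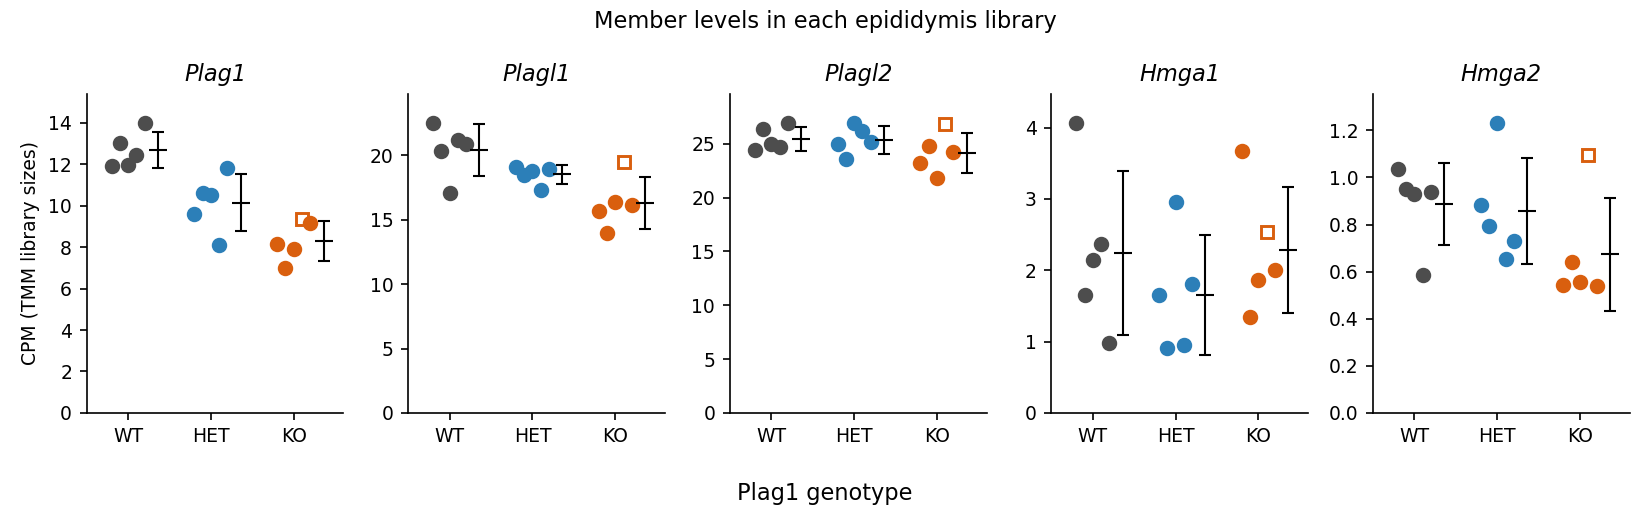
Level of the 5 tested members (y axes, CPM with TMM library sizes, each from 0) in WT, HET and KO epididymis (x axis); each point is 1 library, open squares are KO-738, and the bar with whiskers is the mean ± SD of 5 libraries. All 5 KO and all 5 HET points of Plag1 lie below the lowest WT point of 11.9 CPM, while for Plagl1 KO-738, at 19.5 CPM, lies within the WT range.

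Plagl1 (NCBI Gene 22634; chr10:13090832-13131694, plus strand), also called Zac1, is an imprinted gene for a zinc finger protein described as restraining cell proliferation. In WT its level was 22.5 CPM in WT-709, 20.4 in WT-719, 17.1 in WT-720, 21.2 in WT-723 and 20.9 in WT-726. In HET it was 19.09 CPM in HET-692, 18.45 in HET-693, 18.78 in HET-715, 17.28 in HET-718 and 18.97 in HET-735. In KO it was 15.7 CPM in KO-694, 14.0 in KO-695, 16.4 in KO-696, 19.5 in KO-738 and 16.1 in KO-739. All KO libraries except KO-738 lay below every WT and every HET library, and all HET libraries lay within the WT range. The means were 20.4 ± 2.01 CPM (WT), 18.5 ± 0.73 (HET) and 16.3 ± 2.02 (KO) (SD, n = 5), so KO stood at 80.0% of WT and HET at 90.7%.

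KO against WT gave a Plagl1 log2 fold change of -0.32 ± 0.08 (95% interval -0.50 to -0.14) with an edgeR adjusted p of 0.0370. HET against WT gave -0.14 ± 0.08 (95% interval -0.32 to 0.04) and KO against HET -0.18 ± 0.08, with edgeR adjusted p of 0.981 and 0.237. Per intact Plag1 allele, Plagl1 changed by 0.16 ± 0.04 log2 units with an edgeR adjusted p of 0.0336. That call was lost with the animal number range as a term (0.14, edgeR adjusted p = 0.170) and in 8 of the 15 fits that left out 1 library, where the edgeR adjusted p reached 0.0769. The exact permutation p of KO against WT was 0.0159, and 0.0794 adjusted over the 15 member tests. Without KO-738 the difference was -0.39 with an edgeR adjusted p of 0.00326. The call was lost in 11 of the 15 fits that left out 1 library, where the edgeR adjusted p reached 0.0906, and with the animal number range as a term, where the difference was -0.27 with an edgeR adjusted p of 0.185. Summed epithelium and fibroblast markers also differed between KO libraries, and in KO-738, the KO library with the highest Plagl1, they were 58008 and 2143 CPM while the remaining KO libraries held 38291 to 49330 and 2993 to 3844 CPM. Their part in the Plagl1 result was not tested.

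Over the 15 libraries Plag1 and Plagl1 had the highest correlation of the 10 pairs of tested members, with the genotype differences left in. Pearson's r of log2 CPM was 0.82 and Spearman's rho 0.76, with permutation p of 0.0025 and 0.0156 adjusted over 10 pairs, and r was 0.71 without the 2 libraries farthest from the median of Plag1. The 3 genotypes make up much of that spread. After subtracting each genotype's mean, r was 0.55, below the 0.59 of Plagl2 and Hmga2, with a permutation p of 0.0225 and 0.225 adjusted over the 10 pairs.

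The Plagl1 promoter is shown because Plagl1 moved in the same direction as Plag1. The described PLAG consensus was searched on both strands as GAGGC or GGGGC followed, after 6 to 8 bases, by GGG, with overlapping matches merged into 1 stretch. In the 250 bases before the start of Plagl1 in the RefSeq promoter set of GRCm38.p6, 2 stretches were found, both on the strand opposite to the one printed. Of 32851 promoters searched in the same way, 19.9% held a stretch and 4.39% held 2 or more. The consensus is rich in G and C, and these shares are not matched for that. The Plagl1 stretch of 250 bases was 70.4% G and C, against a median of 52.4% over the promoters searched. The stretches are in capitals.
Plagl1, chr10:13090582-13090831, plus strand: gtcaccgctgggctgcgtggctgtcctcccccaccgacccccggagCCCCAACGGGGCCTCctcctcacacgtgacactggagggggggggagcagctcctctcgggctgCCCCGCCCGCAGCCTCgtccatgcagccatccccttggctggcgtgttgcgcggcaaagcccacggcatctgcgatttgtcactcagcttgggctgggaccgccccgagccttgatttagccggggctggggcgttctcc
Among the other members with a promoter in that set, Lin28a had 1 stretch, and Hmga1, Hmga2 and Lin28b had 0. Plag1 and Plagl2 had no entry.

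Plagl2 (NCBI Gene 54711; chr2:153227769-153241358, minus strand), the closest relative of Plag1 in sequence and the member with the highest level, did not differ between genotypes beyond the spread of the libraries. In WT its level was 24.4 CPM in WT-709, 26.3 in WT-719, 25.0 in WT-720, 24.7 in WT-723 and 27.0 in WT-726. In KO it was 23.2 CPM in KO-694, 24.8 in KO-695, 21.8 in KO-696, 26.8 in KO-738 and 24.2 in KO-739. The HET libraries spanned 23.6 to 26.9 CPM, and all 3 groups overlapped. KO against WT gave a log2 fold change of -0.08 ± 0.06 with an edgeR adjusted p of 0.472. The 95% interval of the fold ran from 0.870 to 1.03, so a rise of Plagl2 above 1.03-fold lies outside it. With the number range as a term, Plagl2 was lower by 0.12 ± 0.05 log2 units in animals numbered below 700 (unadjusted p = 0.0445, edgeR adjusted p = 0.292).

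The genes beside Plag1 and Plagl2 did not pass the test in any comparison. Chchd7, a mitochondrial protein gene whose start lies 409 bases from that of Plag1 in the opposite orientation, was at 57.7 ± 2.70 CPM (WT), 61.4 ± 4.12 (HET) and 58.7 ± 5.37 (KO). Its KO against WT log2 fold change was 0.03 ± 0.06 (95% interval -0.11 to 0.16). Pofut1, the gene for protein O-fucosyltransferase, starts 173 bases from Plagl2 and gave 0.05 ± 0.05 (95% interval -0.05 to 0.16). Hymai, the imprinted non-coding RNA within the Plagl1 span, had 0 to 2 counts per library and was not tested.

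**Figure D2:**
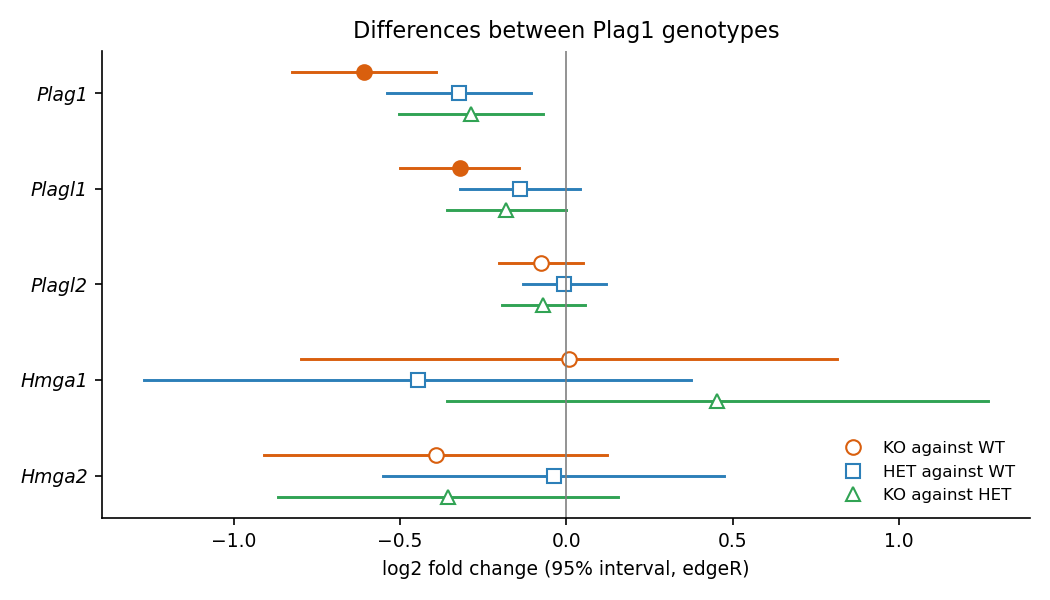
Log2 fold change (x axis, with 95% intervals from edgeR) of each tested member (y axis) in KO against WT (circles), HET against WT (squares) and KO against HET (triangles); filled symbols passed an adjusted p of 0.05 over all genes. The filled symbols are Plag1 at -0.61 and Plagl1 at -0.32 in KO against WT, and the intervals of Hmga1 and Hmga2 are the widest.

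Hmga2 (NCBI Gene 15364; chr10:120361268-120476469, minus strand), which is abundant in the embryo and low in most adult tissues, was the scarcest tested member, with 14 to 35 counts per library. In WT its level was 1.04 CPM in WT-709, 0.953 in WT-719, 0.929 in WT-720, 0.585 in WT-723 and 0.937 in WT-726. In HET it was 0.882 CPM in HET-692, 0.796 in HET-693, 1.23 in HET-715, 0.655 in HET-718 and 0.731 in HET-735. In KO it was 0.542 CPM in KO-694, 0.643 in KO-695, 0.554 in KO-696, 1.10 in KO-738 and 0.537 in KO-739. KO-738 exceeded every WT library, whereas KO-694, KO-696 and KO-739 lay below every WT library and KO-695 lay within the WT range. All KO libraries except KO-738 lay below every HET library. The KO range overlapped with those of WT and HET. KO against WT gave -0.39 ± 0.24 (95% interval -0.91 to 0.12) with an edgeR adjusted p of 0.356, and without KO-738 it gave -0.63 with an edgeR adjusted p of 0.0662, so the call was missed with and without that library.

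Reads of Hmga2 can be shared with the transcribed pseudogene Hmga2-ps1 on chromosome 1, which went in the opposite direction. Hmga2-ps1 was at 0.289 ± 0.124 CPM (WT), 0.456 ± 0.118 (HET) and 0.610 ± 0.256 (KO), a KO against WT log2 fold change of 1.08 ± 0.34 with an edgeR adjusted p of 0.0682. Summed over both genes the level was 1.18 ± 0.16 CPM (WT), 1.32 ± 0.29 (HET) and 1.28 ± 0.34 (KO). The summed KO against WT difference was 0.13, against -0.39 for Hmga2 alone. Whether reads were shared between the copies was not tested.

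Hmga1 (NCBI Gene 15361; chr17:27556574-27563672, plus strand) is the other architectural factor of the family, and its level varied among animals of 1 genotype more than that of any other tested member. In WT it was 4.07 CPM in WT-709, 1.66 in WT-719, 2.14 in WT-720, 2.37 in WT-723 and 0.978 in WT-726. In HET it was 1.65 CPM in HET-692, 0.904 in HET-693, 2.96 in HET-715, 0.946 in HET-718 and 1.81 in HET-735. In KO it was 3.68 CPM in KO-694, 1.34 in KO-695, 1.87 in KO-696, 2.54 in KO-738 and 2.00 in KO-739. The groups overlapped, and the biological coefficient of variation of Hmga1 was 40.5%. KO against WT gave 0.01 ± 0.38 (95% interval -0.80 to 0.81), and HET against WT -0.45 ± 0.39. The 95% interval of the KO against WT fold of Hmga1 ran from 0.575 to 1.76.

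Hmga1 has a near-identical copy, Hmga1b (NCBI Gene 111241; chr11:120762794-120764392), to which most of the counts were assigned. Of the counts of both genes, Hmga1 held 9.47% (95% Wilson interval 6.50% to 13.6%) in HET-693 and 32.3% (26.9% to 38.2%) in HET-715, which are the lowest and highest of the 15 libraries. Both are HET libraries, and the intervals cover counting error only. In the GENCODE basic annotation Hmga1 shares 102 exon bases with AI413582 on the opposite strand, whereas the RefSeq spans of these genes do not overlap. The strand setting of the counting is not given in the sources used here. Hmga1b was at 10.4 ± 2.87 CPM (WT), 8.34 ± 1.32 (HET) and 8.47 ± 1.82 (KO). The sum of both was 12.6 ± 3.93 CPM (WT), 9.99 ± 0.93 (HET) and 10.8 ± 1.93 (KO). WT alone ran from 7.13 to 17.5 CPM and so covered the whole range of HET and KO, and the summed KO against WT difference was -0.23 with an edgeR adjusted p of 0.498.

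**Figure D3:**
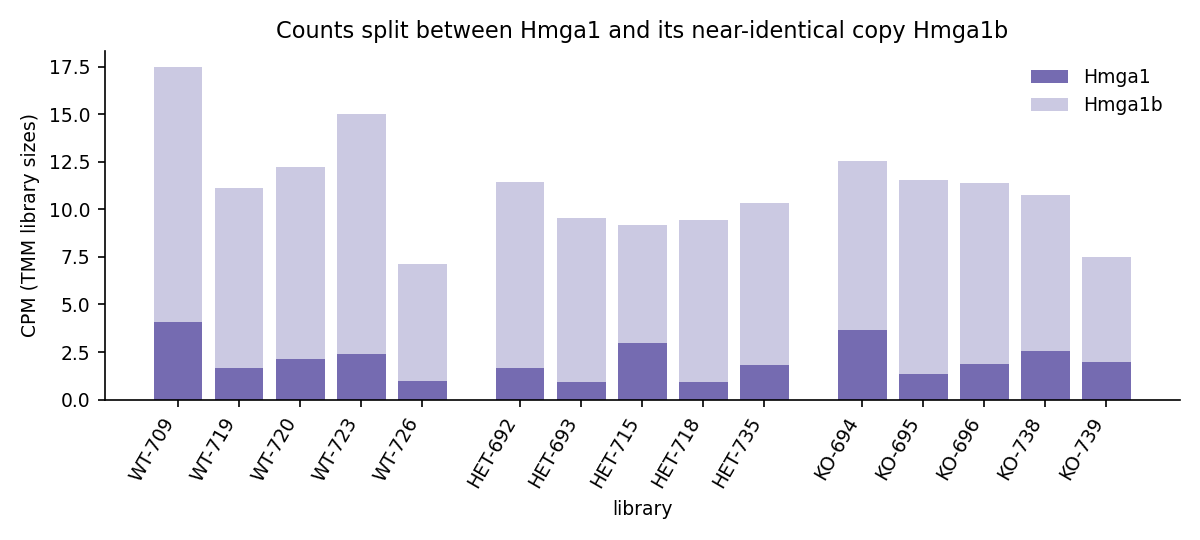
Stacked level of Hmga1 (dark) and Hmga1b (light) in each of the 15 libraries (x axis), in CPM with TMM library sizes (y axis). Hmga1b is the larger part in every library, and the WT libraries alone span 7.13 to 17.5 CPM in sum.

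Lin28a (NCBI Gene 83557; chr4:134003330-134019196, minus strand) and Lin28b (NCBI Gene 380669; chr10:45376617-45486314, minus strand), the RNA-binding proteins that block let-7 maturation in stem cells, embryos and germ cells, had too few counts for a test. Lin28a had 0 counts in all 5 WT libraries, 1 count in each of HET-718 and HET-735, and 2, 1 and 5 counts in KO-696, KO-738 and KO-739. Lin28b had 1 count in each of 2 WT libraries, 1 in 1 HET library, and 1, 2, 2, 1 and 2 counts in KO-694, KO-695, KO-696, KO-738 and KO-739. These sums, 0, 2 and 8 counts of Lin28a and 2, 1 and 8 counts of Lin28b in WT, HET and KO, were spread over 5 libraries each, and Lin28a in KO-739 (0.149 CPM) was the 1 value above 3 counts. No fold is given. In the libraries with 0 counts of Lin28a, 3 counts correspond to between 0.107 and 0.150 CPM in WT and between 0.0839 and 0.116 CPM in KO, which is the level that a count of 0 allows. KO libraries had the highest median total, 33.0 M counts against 25.7 M in WT. Summed germ cell markers were 143, 158, 249, 51.1 and 93.0 CPM in KO-694, KO-695, KO-696, KO-738 and KO-739. The WT range was 46.8 to 101 CPM and the HET range 71.5 to 126 CPM. The part of library totals or of germ cells in the few LIN28 counts was not tested.

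Per kilobase of exon in the GENCODE basic annotation, the level order in WT was Plagl2 at 4.44 ± 0.19, Plagl1 at 3.79 ± 0.37, Plag1 at 2.66 ± 0.18, Hmga1 at 1.06 ± 0.54 and Hmga2 at 0.233 ± 0.046 CPM per kb. In WT and HET no neighbours in that order overlapped. The place of Hmga1 rests on the split with its copy, since Hmga1b was at 6.37 ± 1.77 CPM per kb in WT, above Plagl2. In KO the order was the same, but Plag1 had come down to 1.46 to 1.96 CPM per kb and overlapped with Hmga1 at 0.631 to 1.73 CPM per kb. Exon length is that of all annotated transcripts, so these levels are approximate between genes.

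Among the other pairs, Plagl2 and Hmga2 had r = 0.67 and rho = 0.71 over the 15 libraries, with permutation p of 0.0270 and 0.0223 adjusted over 10 pairs. Without the 2 libraries farthest from the median of Plagl2 r was 0.62, and after subtracting genotype means it was 0.59, with a permutation p of 0.244 adjusted over the pairs. The remaining 8 pairs had adjusted permutation p above 0.05 for r and for rho.

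The genes most like each member were named by Pearson correlation of log2 CPM over the same 15 libraries among 13831 genes with a mean of at least 1 CPM, as a description with no test, since all points share their libraries and their genotypes. For Plag1 these were Slitrk6 (r = 0.89), Zc3h6 (0.88), H3c14 (0.88), Phf20 (0.86) and Jade1 (0.86). After subtracting genotype means r was 0.80 for Slitrk6, a synaptic adhesion protein gene, and 0.82 for Phf20, a chromatin reader gene, and it was 0.66, 0.67 and 0.60 for Zc3h6, H3c14 and Jade1. For Plagl1 they were Epb41, Slc26a3, Dqx1, Syt9 and Aff2, with r from 0.88 to 0.92. They were picked for following Plagl1, which was itself lower in KO, so their KO against WT values are a description. Those were -0.07 for Epb41, -0.35 for Slc26a3, a chloride and bicarbonate exchanger gene, -0.41 for Dqx1, -0.45 for Syt9 and -0.50 for Aff2 on the log2 scale. Plagl2 was most like Tmem218, Usp3, Ston2, Akr1e1 and Suclg2, and Hmga2 most like Hacd2, Zscan22, Rtn4ip1, Minpp1 and Pxk, with r from 0.82 to 0.87. Hmga1, the member with the most variable level, had the weakest likeness, with Tmcc2 at 0.74 and Cebpd, Ajuba, Fjx1 and Hs3st1 at 0.67 to 0.70.

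The wider circuit was described through 6 lists of genes. They held 77 different tested genes. KO against WT called 4 of these (5.19%), Igf1, Igf2bp2, Adcyap1r1 and Tcf4, all as higher, a share near the 4.4% of all tested genes called as higher. Without KO-738, 8 list genes were called as higher and 4 as lower, where 9.75% and 5.21% of all genes were. HET against WT called 0 list genes (edgeR), and KO against HET called 3, Igf1, Igf2bp2 and Wnt6, where 1.61% of all genes were called as higher. Wnt6, a WNT ligand gene described as a PLAGL2 target, is named after its values were seen and was at 4.01 CPM in HET and 5.63 CPM in KO on average (0.49 ± 0.12, edgeR adjusted p = 0.0467). The calls of Igf1, Igf2bp2 and Wnt6 in KO against HET were all lost in the fit of those 2 groups, among animals numbered 700 and above and without each of HET-693, HET-715, HET-718, HET-735 and KO-696, with edgeR adjusted p up to 0.615. Without KO-738 all 3 held, and 5 list genes were called as higher and 4 as lower, where 7.91% and 4.59% of all genes were. The median log2 fold change of all tested genes in KO against WT was -0.01.

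**Figure D4:**
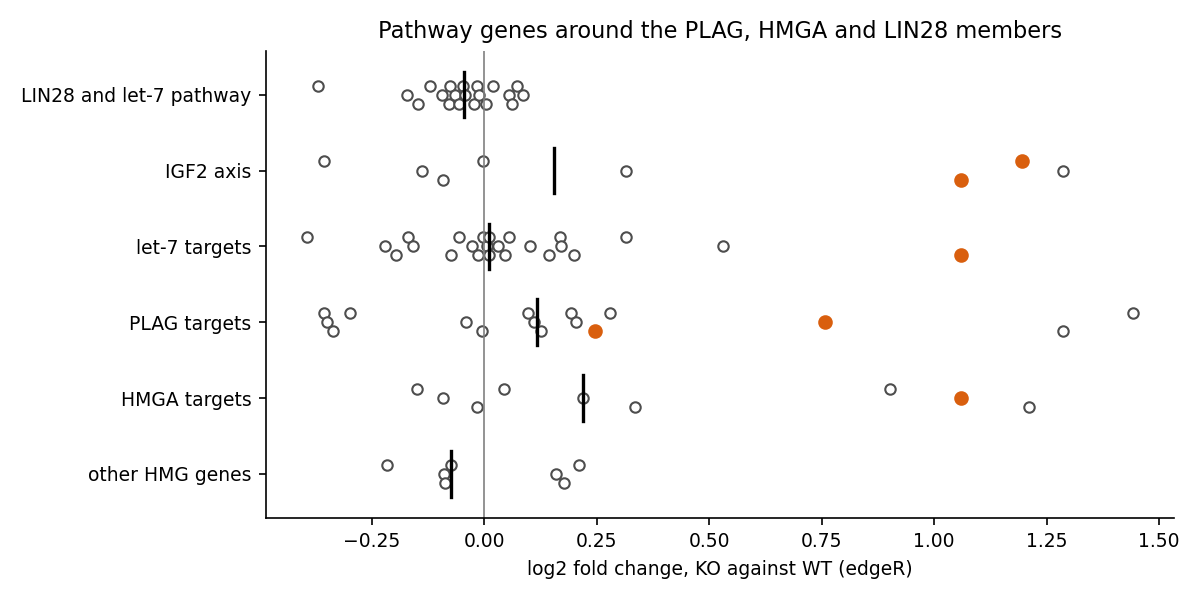
Log2 fold change in KO against WT (x axis, edgeR) of the tested genes of 6 lists (y axis); each point is a gene, filled points passed an adjusted p of 0.05 over all genes, vertical bars are list medians, and a gene in several lists appears in each. The filled points are Igf1 at 1.19 and Igf2bp2 at 1.06, and Adcyap1r1 at 0.76 and Tcf4 at 0.25 among the PLAG targets.

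In the LIN28 and let-7 pathway, which covers the let-7 hairpin genes and their processing machinery, 20 of 31 genes could be tested, and 0 rose and 0 fell, with a median of -0.04. The smallest p-values belonged to Dis3l2, the exonuclease that degrades tailed pre-let-7, at -0.17 ± 0.07 (edgeR adjusted p = 0.147), Ddx5 at -0.15 ± 0.06, Tut7 at 0.09 ± 0.05 and Xpo5 at -0.07 ± 0.04. Of the let-7 hairpin genes only Mirlet7d could be tested, the others having 0 to 4 counts per library, and an mRNA library does not measure mature let-7. Trim71, a stem cell let-7 target, had at most 3 counts in any library.

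In the IGF2 axis, which groups IGF ligands, receptors and the IGF2 mRNA-binding proteins, 8 of 10 genes were tested, 2 rose and 0 fell, with a median of 0.16. Igf2bp2, which binds IGF2 mRNA and is a described target both of HMGA2 and of let-7, was at 2.57 CPM in WT-709, 1.96 in WT-719, 2.46 in WT-720, 1.72 in WT-723 and 2.32 in WT-726. In HET it was 2.21 CPM in HET-692, 2.75 in HET-693, 2.85 in HET-715, 2.91 in HET-718 and 2.24 in HET-735. In KO it was 5.11 CPM in KO-694, 5.45 in KO-695, 5.01 in KO-696, 2.32 in KO-738 and 5.16 in KO-739. The KO libraries other than KO-738 lay above every WT and HET library, and KO-738 lay within both ranges.

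KO against WT gave an Igf2bp2 log2 fold change of 1.06 ± 0.20 with an edgeR adjusted p of 0.00847, and KO against HET gave 0.83 ± 0.20 with an edgeR adjusted p of 0.0405. Without KO-738 the KO against WT difference was 1.23 with an edgeR adjusted p of 7.85e-05. Its call was lost with the animal number range as a term (0.93, edgeR adjusted p = 0.0694) and among animals numbered 700 and above (0.77, edgeR adjusted p = 0.224). The KO against HET call was lost in the fit of those 2 groups (edgeR adjusted p = 0.108), with the number term (0.0603), among animals numbered 700 and above (0.615) and in 10 of the 15 fits that left out 1 library, where the edgeR adjusted p reached 0.104. In the IGF2 axis, the 4 Igf2 promoters and the 1 Igf2bp3 promoter of the RefSeq set held 0 stretches of the PLAG consensus. The Igf2bp2 promoter, 77.2% G and C against a median of 52.4%, held 1 stretch, where 19.9% of all promoters held any. The stretch is in capitals, on the strand opposite to the one printed, and the promoter is shown because Igf2bp2 rose.
Igf2bp2, chr16:22163300-22163549, minus strand: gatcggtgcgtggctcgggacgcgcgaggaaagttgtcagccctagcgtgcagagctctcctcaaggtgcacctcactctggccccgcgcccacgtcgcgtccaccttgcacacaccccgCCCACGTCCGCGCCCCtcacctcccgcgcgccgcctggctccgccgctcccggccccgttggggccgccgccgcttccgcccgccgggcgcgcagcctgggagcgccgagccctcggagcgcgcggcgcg

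Igf1, the circulating and local growth factor, followed the same pattern of libraries, at 32.4 CPM for KO-738, 60.4 to 68.9 for the remaining KO libraries and 22.1 to 28.8 for WT. Its KO against WT log2 fold change was 1.19 (edgeR adjusted p = 0.00336), and among animals numbered 700 and above it was 0.94 with an edgeR adjusted p of 0.134. Summed fibroblast markers were likewise 2143 CPM for KO-738 and 2993 to 3844 for the rest of KO, and macrophage markers 99.4 against 153 to 169 CPM. The part of these cells in the Igf1 and Igf2bp2 results was not tested. Igf2, the described PLAG1 target, was at 10.6 CPM in KO-694, 9.51 in KO-695, 10.1 in KO-696, 17.4 in KO-738 and 17.0 in KO-739, against 14.8 to 18.3 CPM in WT and 13.0 to 16.6 CPM in HET. KO libraries thus fell into 3 below all WT and HET libraries and 2 within the WT range, and the 3 low libraries are the animals numbered below 700. KO against WT gave -0.35 ± 0.16 for Igf2 with an edgeR adjusted p of 0.185, and among animals numbered 700 and above it gave 0.06. Igf2 passed as lower with limma voom (-0.56, adjusted p = 0.0141), without KO-738 (-0.48, edgeR adjusted p = 0.0394) and without HET-693 and KO-738 (-0.48, edgeR adjusted p = 0.0440). H19, the imprinted non-coding RNA next to Igf2, reached 38.1 CPM in KO-739, with 4.32 to 6.20 in the remaining KO libraries, and KO-739 also held 3952 CPM of summed skeletal muscle markers, against at most 84.7 CPM in any other library. The part of muscle RNA in the H19 and Igf2 values of KO-739 was not tested.

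**Figure D5:**
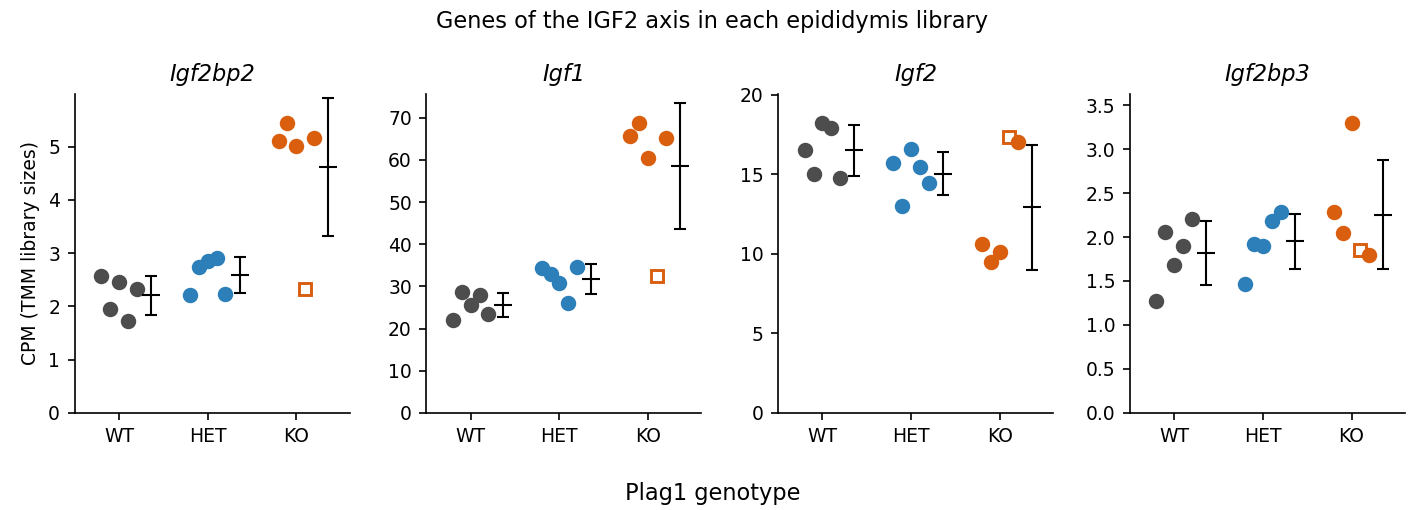
Level of Igf2bp2, Igf1, Igf2 and Igf2bp3 (y axes, CPM with TMM library sizes, each from 0) in WT, HET and KO epididymis (x axis); points are libraries, open squares are KO-738, and bars with whiskers are the mean ± SD of 5 libraries. Igf2bp2 in KO-738, at 2.32 CPM, lies in the WT range while the other KO points lie at 5.01 CPM or above.

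Of the genes described as let-7 targets, 24 of 27 were tested and 1 rose, Igf2bp2, while 0 fell, with a median of 0.01. After Igf2bp2 the smallest p-values were those of E2f5, an E2F family factor, at -0.22 ± 0.07 (edgeR adjusted p = 0.0632), Cdc25a, a cell cycle phosphatase, at 0.17 ± 0.06, and Acvr1c, an activin receptor, at 0.53 ± 0.22. Without KO-738, 2 let-7 targets were called as higher, Igf2bp2 and Cdc25a, and 1 as lower, E2f5. Over all genes 9.75% were then called as higher and 5.21% as lower. Of the genes described as regulated by PLAG1, PLAGL1 or PLAGL2, 16 of 20 were tested. With all libraries 2 of these rose and 0 fell, with a median of 0.12. The risers were Adcyap1r1, the receptor of the peptide PACAP, from 1.41 ± 0.25 CPM in WT to 2.38 ± 0.57 CPM in KO (0.76 ± 0.20, edgeR adjusted p = 0.0339), and Tcf4, an E-protein factor, from 38.4 ± 3.24 to 45.5 ± 4.02 CPM (0.25 ± 0.07, edgeR adjusted p = 0.0406). Adcyap1r1 is described as a gene that PLAGL1 activates, and it was higher in KO, where Plagl1 was lower. The calls of Adcyap1r1 and Tcf4 were lost in 8 and 7 of the 15 fits that left out 1 library. There the edgeR adjusted p reached 0.0975 and 0.101. Both were also lost in the fit of the 2 groups (edgeR adjusted p = 0.0807 and 0.104) and with the number term (0.211 and 0.106). Among animals numbered 700 and above the edgeR adjusted p was 0.328 and 0.183. Without KO-738 both calls held. Igf2, Crabp2 and Smarcd3 of this list were then called as lower, where 5.21% of all genes were. Smarcd3, a chromatin remodelling subunit, gave -0.30 ± 0.10 with all libraries (edgeR adjusted p = 0.0791). Pparg, a nuclear receptor of fat cells, gave 1.44 ± 0.51 (edgeR adjusted p = 0.0977). Its level was low, at 0.364 ± 0.251 CPM in WT and 0.962 ± 0.652 CPM in KO. The part of fat cells in the Pparg value was not tested. Smarcd3 passed as lower with DESeq2 (adjusted p = 0.0475), with limma voom (0.0477), without KO-738 (-0.38, edgeR adjusted p = 0.00815) and without HET-693 and KO-738 (edgeR adjusted p = 0.0119).

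Of the genes described as regulated by HMGA proteins, 9 of 10 were tested, with Igf2bp2 again the 1 riser and a median of 0.22. The cell cycle genes Ccnb2 and Ccna2 gave 1.21 ± 0.38 and 0.90 ± 0.31 (edgeR adjusted p = 0.0683 and 0.0909). Without KO-695 they gave 0.78 and 0.51, and with the number term 0.49 and 0.30, whereas both passed as higher with DESeq2 (adjusted p = 0.0136 and 0.0314) and without KO-738 (1.38 and 1.06, edgeR adjusted p = 0.0231 and 0.0301). Snai2, a zinc finger factor of mesenchymal cells, gave 0.34 ± 0.12 with all libraries. Without KO-738, Igf2bp2, Ccna2, Ccnb2 and Snai2 were called as higher, 4 of the 9 tested, and 0 as lower. Over all genes 9.75% were then called as higher and 5.21% as lower. All 7 of the other HMG genes were tested and 0 passed, with a median of -0.07. The smallest p-value among them was that of Hmgn5, a nucleosome-binding protein gene, at -0.22 ± 0.08 (edgeR adjusted p = 0.0946), followed by Hmgn1 at 0.21 ± 0.09, Hmgn3 at 0.16 ± 0.08 and Hmgb2 at 0.18 ± 0.14, which was 0.0039 without KO-695.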

How the data were processed

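RNA-seq of 15 whole epididymides was deposited by the authors as raw counts per NCBI Gene ID. Per the submitters' processing notes, they used FastQC, HISAT2 2.0.5, featureCounts of Subread 1.4.6p5 and build GRCm38.p6. The strand setting is not given in the sources used here, so overlapping and antisense genes and near-identical copies are uncertain. A RefSeq gene table of that build gave a symbol to 40290 of the 41591 IDs (96.87%). The others, with 0.163% to 0.208% of each library's counts, were kept in its total.

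The deposited counts went unchanged into edgeR 4.0.16 in R 4.3.3 (TMM factors, filterByExpr, robust quasi-likelihood fit of all 15 libraries, 12 residual degrees of freedom). P-values are two-sided, and a gene was called below 0.05 after Benjamini-Hochberg adjustment over the 19388 tested genes. CPM uses TMM library sizes. Single values were also compared by exact permutation of the libraries. The fit was also run on simulated counts with known changes, and the outcome is not given here. Replicates are separate animals, and the animal numbers, which the labels do not explain, serve as names. Libraries held 20.3 to 42.0 M counts, and the intervals of shares cover counting error only.

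The members and the 6 gene lists were chosen with earlier results of these data known. Named genes are the members, Chchd7, Pofut1, the genes past the threshold or with the 4 smallest p-values in each list, and the 5 genes most like each member by Pearson correlation (log2 CPM, prior count 2). Alternatives were other scaling factors, DESeq2 1.42.0, limma 3.58.1 voom, other filters, separate fits for each pair of groups, animal number below 700 as a term or restriction, and leaving out each library. Omitting HET-693 and KO-738, where ribosomal RNA genes exceeded 1% of counts, summing gene copies and counting list calls without KO-738 were added after seeing the data. Figures used Python 3.11.15 and matplotlib 3.10.9.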

Additional observations from a re-analysis of the deposited data

Results flagged for a closer look

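In 90 groups of 5 libraries examined, 1 library stood far from the other 4 in 8, by a gap of more than 0.71 of the group's range, where chance alone flags about 1 in 20 groups. Of these 8 values, 3 belong to KO-738. There Hmga2 was at 1.10 CPM, with the remaining KO libraries at 0.537 to 0.643. Igf1 was at 32.4 CPM, with the rest at 60.4 to 68.9, and Igf2bp2 at 2.32 CPM, with the rest at 5.01 to 5.45. In each of these genes KO-738 lay on the side of the WT libraries. Plag1 itself, at 9.36 CPM in KO-738, was below every WT library and within the HET range.

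Hmga2 was also low in WT-723, at 0.585 CPM against 0.929 to 1.04 CPM in the other WT libraries. H19 was at 38.1 CPM in KO-739, with 4.32 to 6.20 in the rest of KO. Hmgb2, a chromatin protein gene, was at 40.0 CPM in KO-695 against 22.5 to 25.8 CPM. Cdc25a was at 14.5 CPM in WT-726 against 13.1 to 13.3 CPM, and Smarcd3 at 142 CPM in HET-715 against 112 to 117 CPM.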

How the results depend on the processing

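Plag1 in KO against WT kept its direction under all 25 alternatives and its call in 24, from -0.65 to -0.45 (without 1 library, -0.65 to -0.55). The exception was the restriction to animals numbered 700 and above (-0.45, 5 WT against 2 KO). Plagl1 kept its direction under all 25, and its call was lost with no filter on low counts (-0.31), in the fit of the 2 groups compared (-0.31), with the animal number range as a term (-0.27) and in animals numbered 700 and above (-0.19). Without 1 library it ranged from -0.39 to -0.27. The members called in KO against WT, 2, became 1 under the first 3 of these settings, 0 in animals numbered 700 and above, and 1 to 2 without 1 library. In KO against HET 1 member, Plagl1, was called as lower without KO-738, where 4.59% of all genes were called as lower. Leaving out 1 library gave 0 to 1.

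Genes called in KO against WT, 1163, became 1930 with DESeq2, 287 in the fit of the 2 groups, 177 with the number term, 0 in animals numbered 700 and above and 2722 without HET-693 and KO-738. Without 1 library they ranged from 318 to 2923. In KO against HET, 380 became 1242 with DESeq2, 1952 with limma voom, 0 in the fit of the 2 groups, 0 in animals numbered 700 and above and 1660 without HET-693 and KO-738, and without 1 library ranged from 0 to 2443. In HET against WT, 0 became 1 with DESeq2.

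Values that turned sign were those of members not called, of neighbours and of Igf2. In KO against WT, Plagl2 gave 0.0052 and Igf2 0.060 in animals numbered 700 and above. Hmga1 gave -0.038 without HET-693 and KO-738 and -0.23 with the copies summed, and without 1 library ranged from -0.22 to 0.33. Hmga2 gave 0.13 with the copies summed. Chchd7 without 1 library ranged from -0.022 to 0.051. In HET against WT, Plagl2 gave 0.0035 with upper-quartile factors, 0.012 with limma voom, 0.040 with the number term, 0.014 in animals numbered 700 and above and 0.013 without HET-693 and KO-738, and without 1 library ranged from -0.036 to 0.013. Hmga2 gave 0.075 with the number term and 0.16 with the copies summed, and ranged without 1 library from -0.21 to 0.037. Pofut1 gave 0.0020 with upper-quartile factors and 0.012 with limma voom, and ranged without 1 library from -0.048 to 0.0070. Hmga1 per intact allele ranged without 1 library from -0.18 to 0.12. The cause of these shifts was not tested. Lin28a and Lin28b had too few counts for a test, and no paired analysis was possible because the animal numbers differ between all libraries.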

Other observations

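AI413582, a gene on the strand opposite to Hmga1 that shares 102 exon bases with it in the GENCODE basic annotation, was chosen after its values were seen. It was at 3.75 CPM in WT-720, 6.48 CPM in HET-715 and 3.74 CPM in KO-696, and at 0.866 to 1.38 CPM in the other 12 libraries. HET-715 is also the library with the largest Hmga1 share of the Hmga1 and Hmga1b counts (32.3%), whereas that share was 17.5% in WT-720 and 16.4% in KO-696. Igf2bp1, the let-7 target of the family with 4 seed matches in its 3′ UTR, was too low to be tested, with at most 16 counts in any library. The promoter of Pofut1, whose 250 bases overlap the start of Plagl2, held 2 stretches of the PLAG consensus, 1 on each strand. That promoter was 80.4% G and C against a median of 52.4%, and 4.39% of all promoters held 2 or more.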
